A study of Mus musculus with 22 samples.

Results

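The enrichment of each RNA on the tagged ribosomes of noradrenergic cells was measured within single mice. It was compared between animals of the hTyr treatment and animals of the EYFP treatment. The name hTyr stands for human tyrosinase, a pigment enzyme, and EYFP for a fluorescent protein. For every animal and every gene the input value, from RNA taken before the immunoprecipitation, was subtracted from the value of the immunoprecipitated RNA (IP), and these differences were set against each other in 5 hTyr animals (IP_501, IP_502, IP_508, IP_509 and IP_510) and 6 EYFP animals (IP_504, IP_505, IP_506, IP_507, IP_511 and IP_512), each called here by the title of its IP library. The comparison therefore used 11 pairs, which are all 22 libraries of the series, and 12596 genes, which are all genes of the deposited table. Both groups of mice carried the same 2 transgenes on a C57Bl/6 background: Th-cre, which places Cre recombinase under tyrosine hydroxylase sequences, and Slc6a2-eGFP/Rpl10a, which places a fluorescently tagged ribosomal protein under the noradrenaline transporter gene. IP libraries are labelled noradrenergic and input libraries total hindbrain. The tag marks whichever cells use the Slc6a2 sequences of this 1 transgenic line. The labels used here state neither age, sex, dose nor time after treatment. Y-linked RNA was found in some animals of each treatment and was nearly absent from the others.

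Ribosome tagging is meant to isolate RNA that is being translated in one cell type. A gene's enrichment (IP minus input) compares the immunoprecipitated RNA with the RNA of the whole tissue. Noradrenergic neurons of the locus coeruleus make noradrenaline from tyrosine through tyrosine hydroxylase, aromatic amino acid decarboxylase and dopamine beta-hydroxylase, and they are pigmented in people but hardly so in mice. Tyrosinase, normally a melanocyte enzyme, oxidises tyrosine and catechols and can drive the formation of a melanin-like pigment in neurons. Cells that meet misfolded protein in the endoplasmic reticulum (ER) answer through the unfolded protein response, whose ATF6 and IRE1-XBP1 branches raise ER chaperones and whose PERK-ATF4 branch raises Ddit3 (also called CHOP) and other genes of the integrated stress response.

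Enrichments are on the log2 CPM scale, where CPM is a read number scaled to the library's effective size and 1 unit is a doubling. A small constant was added to the reads before the logarithm, which understates the change of genes with few reads. Read totals per library, over the genes of the table, ran from 12654489 to 19043798 in hTyr IP, 15680491 to 20368032 in EYFP IP, 18771136 to 25100142 in hTyr input and 16988860 to 21480570 in EYFP input. The noradrenergic label of the IP libraries was checked on 14 noradrenergic genes. By the threshold given next, 13 were enriched in IP in EYFP animals (median 1.4) and 14 in hTyr animals (median 2.13). In EYFP animals so were 9 of 16 astrocyte genes (5 depleted, median 0.25) and 9 of 14 genes of other transmitter systems (2 depleted, 0.321). Of 19 oligodendrocyte genes 7 were enriched and 11 depleted (median -0.305), and of 14 endothelial and mural genes 5 and 0. The IP thus cannot be read as noradrenergic RNA alone. At an adjusted p under 0.05 (limma, Benjamini-Hochberg over all genes) 7720 genes differed between IP and input in EYFP animals (61.3% of those tested; 3791 or 30.1% higher and 3929 or 31.2% lower in IP) and 8075 did so in hTyr animals (64.1%; 3919 or 31.1% higher and 4156 or 33% lower).

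The enrichment of 5 genes was gained with hTyr and that of 0 genes was lost. The 5, which are 0.0397% of the genes tested in either direction and 0.0397% in the direction of a gain (the share lost was 0%), were Sdf2l1, Ddit3, Creld2, Hmox1 and Tnfrsf12a. Without adjustment, 874 genes (6.94%) had a p under 0.05, of which 586 were more enriched in hTyr (4.65%) and 288 less (2.29%). Another view counts genes whose 5 hTyr animals all lay beyond the 6 EYFP animals. By this count 58 genes were higher without overlap (0.46%) and 20 were lower (0.159%). How many genes would separate by chance was not estimated. Over all genes the difference had a median of 0.0024 and 50.7% of genes were above 0, with 1% of genes below -0.43 and 1% above 0.45.

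Sdf2l1, an ER-resident chaperone cofactor, lies in GRCm38 at chr16:17130138-17132383 and had the lowest p of all genes. Its enrichment was 2.19 in animal IP_501, 2.15 in IP_502, 1.26 in IP_508, 1.21 in IP_509 and 1.01 in IP_510, while in the EYFP animals it ran from -0.16 through a median of -0.08 to 0.29. Every hTyr animal was above every EYFP animal, and in EYFP animals the RNA was neither enriched nor depleted. The gain was 1.58 (SE 0.18, adjusted p = 0.000206), from -0.01 ± 0.17 (SD, n = 6) to 1.56 ± 0.56 (SD, n = 5), or 2.98-fold. In IP the gene had 660 to 1705 reads in hTyr and 335 to 525 in EYFP.

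Ddit3, the transcription factor CHOP at the end of the PERK branch, lies at chr10:127290793-127296291. Its enrichment was 1.43, 1.16, 0.48, 0.50 and 0.54 in animals IP_501, IP_502, IP_508, IP_509 and IP_510, against a lowest value of -0.53, a median of -0.39 and a highest value of -0.08 in EYFP. All 6 EYFP animals were below 0 and all 5 hTyr animals above it. The gain was 1.17 (SE 0.15, adjusted p = 0.000784), or 2.25-fold. Ddit3 was thus depleted from the IP in EYFP animals at -0.35 ± 0.19 (SD, n = 6, adjusted p = 0.00587 for EYFP alone) and enriched in hTyr animals at 0.82 ± 0.44 (SD, n = 5, adjusted p = 1.87e-06).

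Creld2, an ER-resident disulfide isomerase-like protein, lies at chr15:88819646-88826681. Its enrichment was 1.88, 1.63, 0.89, 1.20 and 0.50 in the hTyr animals in the same order, and -0.15 at the lowest, 0.11 at the median and 0.33 at the highest in EYFP. Animal IP_510 was the nearest to the EYFP range, and the groups did not overlap. The gain was 1.12 (SE 0.19, adjusted p = 0.0188), or 2.17-fold. It did not pass without EYFP animal IP_506 (adjusted p = 0.0541), hTyr animal IP_501 (0.0716) or hTyr animal IP_502 (0.11).

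Hmox1, the haem oxygenase that opens the haem ring and is a classical target of the oxidative stress factor NRF2, lies at chr8:75093618-75100593. Its enrichment was 2.90, 1.81, 1.07, 1.41 and 0.995 in the hTyr animals, against -0.13, 0.09 and 0.64 as the lowest, median and highest EYFP values. Animal IP_501 was well above the other 4, and the highest EYFP animal was still below the lowest hTyr animal. The gain was 1.49 (SE 0.25, adjusted p = 0.0188), or 2.81-fold. The adjusted p was 0.0541 without EYFP animal IP_506, 0.0844 without EYFP animal IP_512 and 0.11 without hTyr animal IP_502. Hmox1 levels in the EYFP IP libraries were close together, at 3.20 ± 0.07 log2 CPM (SD, n = 6), while those in hTyr IP were spread over 4.92 ± 0.70 (SD, n = 5).

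Tnfrsf12a, the receptor for the cytokine TWEAK and a gene known from injured neurons, lies at chr17:23675445-23677449. Its enrichment was 1.27, 0.86, 0.69, 1.02 and 0.11 in the hTyr animals, and -0.46, -0.28 and 0.32 as the lowest, median and highest EYFP values. It is the 1 gene of the 5 whose groups overlap, since animal IP_510 fell within the EYFP range. The gain was 0.97 (SE 0.18, adjusted p = 0.0483), or 1.96-fold. This call is the least stable of the 5: it held in 3 of 11 fits that each left out 1 animal (the fits without EYFP IP_505, EYFP IP_507 and hTyr IP_510), with adjusted p of 0.319 without hTyr IP_501 as the highest. Sdf2l1 and Ddit3 passed in all 11 such fits, with gains of 1.42 to 1.71 and 1.02 to 1.26.

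**Figure D1:**
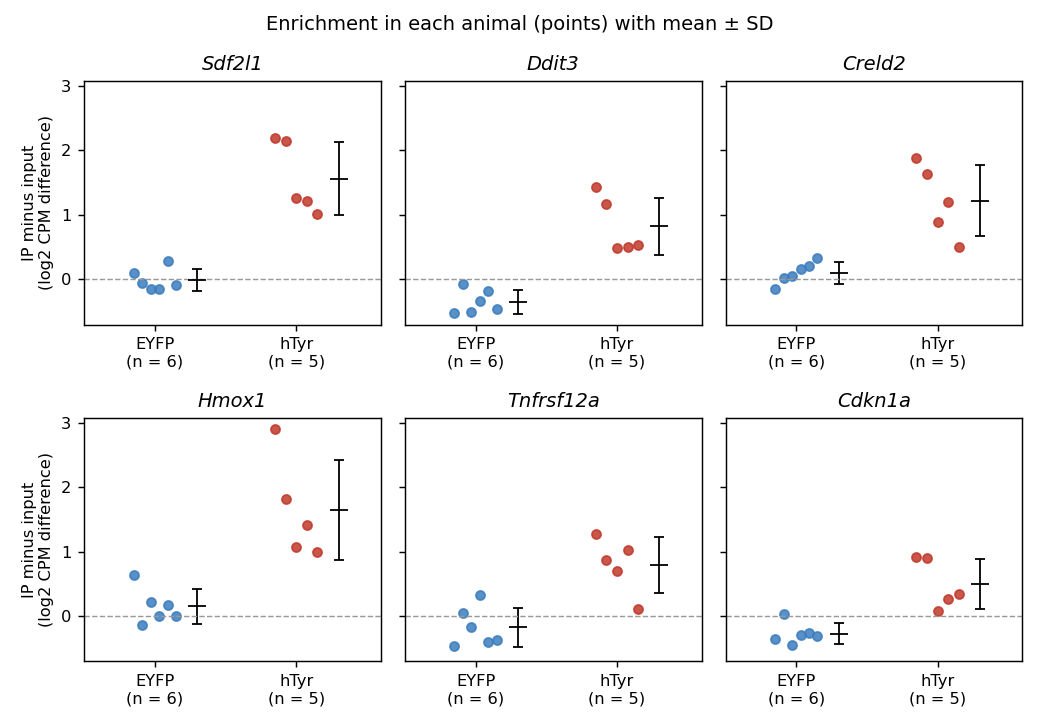
Enrichment (IP minus input, log2 CPM difference) of the 5 genes past the threshold and of Cdkn1a, the gene with the next lowest p, in each animal (points) with mean ± SD beside them. Except for Tnfrsf12a, whose lowest hTyr animal stands at 0.11 and highest EYFP animal at 0.32, every hTyr point lies above every EYFP point.

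The hTyr animals differed among themselves in these genes. Animals IP_501 and IP_502 had the highest enrichment of Sdf2l1, Ddit3, Creld2 and Hmox1, while in Tnfrsf12a IP_501 and IP_509 did. IP_501 and IP_502 also had the highest mean enrichment of the 14 noradrenergic genes, at 2.92 and 2.45 against 1.76 to 2.05 in the other 3 hTyr animals and 1.41 to 2.34 in EYFP. With that mean as a covariate Sdf2l1 and Ddit3 passed and Creld2 (adjusted p = 0.205), Hmox1 (0.0916) and Tnfrsf12a (0.521) did not. The log2 ratio of IP reads to input reads was also lower in hTyr, from -0.66 to -0.06, than in EYFP, from -0.31 to 0.18. With this ratio as a covariate 0 genes passed (774 at an unadjusted p under 0.05; lowest adjusted p 0.145, that of Sdf2l1). The differences were then 1.3 for Sdf2l1, 1.01 for Ddit3, 0.835 for Creld2, 1.22 for Hmox1 and 0.771 for Tnfrsf12a.

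Just outside the threshold stood Cdkn1a, the cell cycle inhibitor p21 and a p53 target. Its enrichment was 0.92, 0.90, 0.07, 0.26 and 0.35 in the hTyr animals and -0.44, -0.31 and 0.03 as the lowest, median and highest EYFP values. The groups did not overlap, by a small margin. The difference was 0.78 (SE 0.15, adjusted p = 0.0548), and it passed without EYFP animal IP_505 (adjusted p = 0.0414), hTyr animal IP_508 (0.0152) or hTyr animal IP_509 (0.0324). Cdkn1a was higher in hTyr input as well (by 0.49), so its IP difference of 1.27 exceeds its enrichment difference.

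The other genes with the lowest p and a positive difference did not pass. Ptprb, a receptor phosphatase of blood vessel cells, differed by 1.19 (SE 0.24, adjusted p = 0.129) at a low level of 68 to 226 IP reads. Ppp1r15a (GADD34), the phosphatase subunit that ends the PERK signal, differed by 0.78 (SE 0.16, adjusted p = 0.149). Dnajb9, an ER cochaperone of the XBP1 branch, differed by 0.56 (SE 0.12, adjusted p = 0.187). None of the 3 overlapped between the groups. Further genes were Abce1 (0.55), a ribosome recycling factor, Klf6 (0.59), an injury-responsive transcription factor, Taf7 (0.64), a subunit of the general transcription factor TFIID, Cdc27 (0.50), a subunit of the anaphase-promoting complex, and Atf3 (1.27), a stress transcription factor, all at an adjusted p between 0.22 and 0.278. Atf3 passed when EYFP animal IP_504, the EYFP animal with the highest value (1.21), was left out (adjusted p = 0.037).

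The direction of enrichment itself turned for a small group of genes. Of 12596 genes, 3396 were enriched in both treatments and 3349 depleted in both. A further 518 were enriched and 806 depleted in hTyr alone, and 394 were enriched and 575 depleted in EYFP alone, which by itself does not show that the treatments differ for them. Depletion in EYFP and enrichment in hTyr were found for 5 genes: Ddit3, Ppp1r15a, Cdkn1a, Klf6 and Ifrd1, a transcriptional coregulator. Ppp1r15a went from -0.39 ± 0.24 (SD, n = 6) to 0.39 ± 0.42 (SD, n = 5), Klf6 from -0.26 ± 0.14 to 0.33 ± 0.31 and Ifrd1 from -0.23 ± 0.18 to 0.36 ± 0.38. Of the 5, Ddit3 alone passed the test of the difference itself. The opposite turn was found for Itpka alone, a kinase of inositol trisphosphate, from 0.48 ± 0.34 to -0.37 ± 0.41 (difference -0.86, SE 0.20, adjusted p = 0.278).

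**Figure D2:**
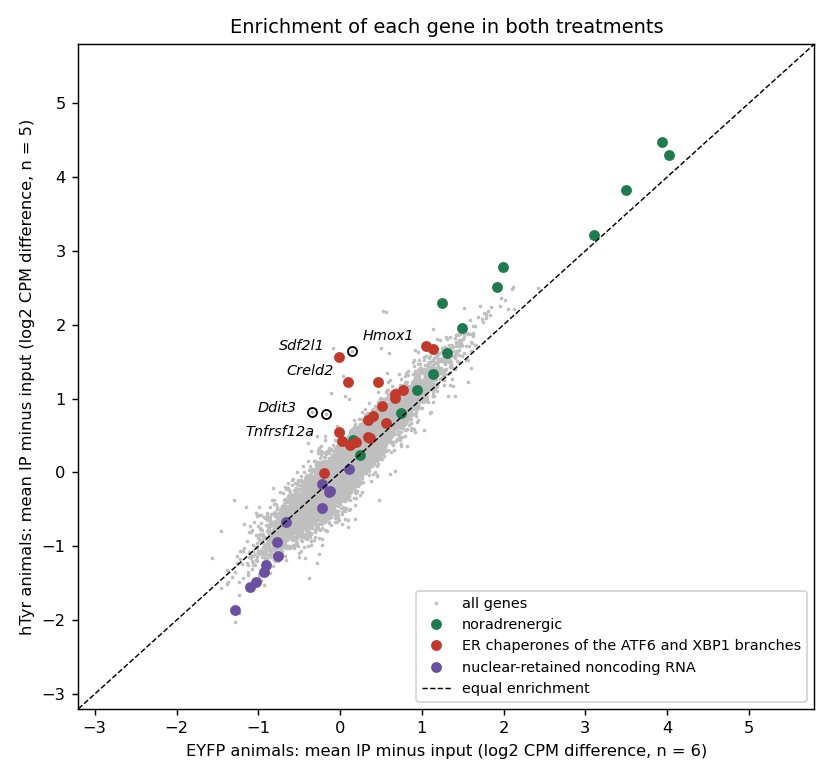
Mean enrichment of each of the 12596 genes in EYFP animals (x axis, n = 6) and in hTyr animals (y axis, n = 5), both as log2 CPM differences of IP and input, with 3 gene lists coloured and the 5 genes past the threshold named. Genes above the dashed line of equal enrichment were more enriched in hTyr; all 19 ER chaperones lie above it, Sdf2l1 and Creld2 farthest.

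ER chaperones had the highest median difference of the gene lists examined, although not under every alternative. The endothelial and mural list was higher with the read ratio (0.466 against 0.363) or the noradrenergic enrichment (0.329 against 0.203) as a covariate, without EYFP IP_511 (0.419 against 0.328) and without hTyr IP_502 (0.433 against 0.353). The noradrenergic list was higher without EYFP IP_505 (0.323 against 0.306). The ER chaperone list holds 19 measured genes of the ATF6 and XBP1 branches: chaperones, their cochaperones, protein disulfide isomerases that form disulfide bonds, and the factors Atf6 and Xbp1 themselves. All 19 had a positive difference (50.7% of all genes did), 16 had an unadjusted p under 0.05 (4.65% of all genes in that direction), 5 had groups without overlap (0.46% of all genes) and 2, Sdf2l1 and Creld2, passed the adjusted threshold. The median difference was 0.36, against 0.0024 over all genes, and it came from IP (median 0.34) rather than input (-0.058). In each animal the mean enrichment of the list was 1.24, 1.00, 0.65, 0.79 and 0.62 in hTyr animals IP_501, IP_502, IP_508, IP_509 and IP_510, and 0.22 at the lowest, 0.44 at the median and 0.51 at the highest in EYFP. No hTyr animal fell within the EYFP range, and the nearest animals were hTyr IP_510 (0.62) and EYFP IP_504 (0.51). Sdf2l1 and Creld2 are part of these means. In those animals Sdf2l1 stood at 1.01 and 0.09 and Creld2 at 0.50 and -0.15. The means without these genes were not examined, so the gap cannot be read as that of the other members.

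Among its members, Hspa5 (BiP), the master chaperone that holds the stress sensors inactive, had 5385 to 9947 reads in hTyr IP and 4419 to 6708 in EYFP IP. Its enrichment was 2.4, 1.84, 1.37, 1.64 and 1.32 in the hTyr animals and 0.67, 1.13 and 1.40 as the lowest, median and highest EYFP values. The groups overlapped only at their edges, and the difference was 0.66 (SE 0.16, adjusted p = 0.278). Pdia4, a disulfide isomerase, differed by 0.76 (SE 0.19, adjusted p = 0.287) and Hsp90b1 (GRP94), the ER form of HSP90, by 0.54 (SE 0.13, adjusted p = 0.288). Pdia6 (0.39), Manf (0.41), a secreted stress factor, Calr (0.35) and Canx (0.34), the lectin chaperones, and Dnajc3 (0.34) had smaller differences. The sensor Atf6 (0.12), the cochaperone Sil1 (0.14) and the isomerase Dnajc10 (0.11) are the 3 members that did not reach an unadjusted p under 0.05. Over the fits that each left out 1 animal, all 19 stayed positive, with 12 to 16 at an unadjusted p under 0.05 and a median of 0.30 to 0.435. With the noradrenergic enrichment as a covariate 18 were positive, 8 of them at an unadjusted p under 0.05, and the median was 0.20. With the read ratio as a covariate 19 were positive, 9 at an unadjusted p under 0.05, and the median was 0.36.

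The ER stress response element is the DNA sequence through which ATF6 with NF-Y raises ER chaperones, and it was looked for in the 250 bases before each RefSeq start site (GRCm38.p6). The letters searched were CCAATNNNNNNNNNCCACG on both strands. They occur in 0.113% of 32851 promoter windows and in 16 of 9578 tested genes with a window (0.167%), and 7 of the 15 ER chaperones with a window hold them. The elements are shown because they line up across the list, each read in its own direction, with the fixed letters in capitals and with Hsp90b1 holding 2 of them.
Hspa5, chr2:34772025-34772043, plus strand: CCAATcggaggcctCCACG
Hsp90b1, chr10:86705638-86705656, minus strand: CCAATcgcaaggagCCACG
Hsp90b1, chr10:86705533-86705551, plus strand: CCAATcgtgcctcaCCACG
Calr, chr8:84847075-84847093, plus strand: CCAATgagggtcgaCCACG
Canx, chr11:50325800-50325818, minus strand: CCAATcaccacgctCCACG
Pdia6, chr12:17266491-17266509, plus strand: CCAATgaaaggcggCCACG
Dnajc3, chr14:118937827-118937845, plus strand: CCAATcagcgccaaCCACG
Creld2, chr15:88819520-88819538, minus strand: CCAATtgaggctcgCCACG
The outer blocks are shared by construction, while the 9 bases between them differ from gene to gene. The 7 chaperones with the element had a median difference of 0.39 (0.335 to 1.12) and the 8 without it 0.33 (0.109 to 1.58), so its presence in this window did not sort the list. The other 9 tested genes with the element had a median difference of 0.0069 (-0.13 to 0.21) and 0 of them had a higher enrichment at an unadjusted p under 0.05.

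Of the 5 genes past the threshold, 4 matched a promoter window. The windows of Creld2 and Sdf2l1 are shown as those of the 2 ER proteins whose enrichment was gained. The Creld2 window, chr15:88819396-88819645 on the plus strand, holds the element 126 to 108 bases before the start on the opposite strand, so the capitals read CGTGG and ATTGG.
Creld2: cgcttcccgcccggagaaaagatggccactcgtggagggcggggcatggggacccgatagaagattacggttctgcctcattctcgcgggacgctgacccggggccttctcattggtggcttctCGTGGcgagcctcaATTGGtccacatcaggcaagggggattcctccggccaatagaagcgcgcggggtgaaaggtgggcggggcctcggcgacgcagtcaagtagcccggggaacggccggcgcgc
The Sdf2l1 window, chr16:17132384-17132633 on the minus strand, is printed in the direction of the gene and holds none of the letters searched.
Sdf2l1: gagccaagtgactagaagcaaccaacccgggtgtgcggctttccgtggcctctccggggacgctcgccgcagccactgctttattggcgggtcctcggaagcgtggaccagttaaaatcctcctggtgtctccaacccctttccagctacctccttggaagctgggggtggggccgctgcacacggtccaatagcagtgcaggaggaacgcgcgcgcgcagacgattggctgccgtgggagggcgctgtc
Also searched on both strands were ER stress response element II, which is ATTGG and CCACG with 1 base between them (0.0304% of windows), the ATF6 and XBP1 site TGACGTGG (0.563%), the composite site TGATGNAAT of C/EBP and ATF factors (0.816%) and the core of the antioxidant response element TGACNNNGC (10.2%). None of these was found in the windows of Sdf2l1, Ddit3, Creld2 or Tnfrsf12a. No match in such a window says only that these letters are not in it.

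ER-associated degradation, which returns misfolded proteins to the cytosol for the proteasome, was represented by 12 measured genes. Of these 11 had a positive difference (50.7% of all genes did), 2 had a higher enrichment at an unadjusted p under 0.05 (4.65% of all genes), 0 passed the adjusted threshold, and the median was 0.17, or 0.108 without hTyr IP_501. Edem3, which trims glycans of misfolded proteins, differed by 0.40 (SE 0.16, adjusted p = 0.705), and Herpud1, a scaffold of the degradation complex, by 0.22 (SE 0.10, adjusted p = 0.71).

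The integrated stress response list holds 21 measured genes of the PERK-ATF4-CHOP branch and its amino acid programme. Ddit3 was the 1 that passed, 16 had a positive difference (50.7% of all genes), 7 reached an unadjusted p under 0.05 in that direction (4.65% of all genes) and 0 in the other (2.29%), and the median was 0.14. The mean enrichment of the list was 0.49, 0.40, 0.24, 0.26 and 0.31 in the hTyr animals. In the EYFP animals it was 0.017 to 0.19, without overlap. The nearest animals were hTyr IP_508 (0.2423) and EYFP IP_504 (0.1928). Ddit3 is part of this mean and stood at 0.48 and -0.53 in them. The mean without Ddit3 was not examined, so the gap cannot be read as that of the other members. Nupr1 (-0.31) and Ddit4 (-0.20) had the lowest differences of the list. The members with the largest differences were the late factors Atf3, Ddit3 and Ppp1r15a. Chac1, which degrades glutathione, differed by 0.50 (SE 0.14, adjusted p = 0.52). It stood at 0.60, 0.69, 0.63, 0.60 and 0.15 in the hTyr animals and between -0.12 and 0.27 in EYFP, so that animal IP_510 lay within the EYFP range. Mthfd2, an enzyme of mitochondrial folate metabolism, differed by 0.42 and Sesn2, a stress-induced inhibitor of growth signalling, by 0.46. Among the genes of amino acid supply Slc7a5, an amino acid transporter, differed by 0.32 (SE 0.13, adjusted p = 0.71) and its partner Slc3a2 by -0.0040. The synthesis enzymes differed by 0.23 for Shmt2, 0.096 for Asns, 0.066 for Psat1 and -0.079 for Phgdh (the signs of Psat1, Phgdh and Slc3a2 turned under some alternatives). Atf4 itself differed by 0.12 (SE 0.10, adjusted p = 0.815).

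Hmox1 was the 1 gene among the NRF2 targets that passed. Of 23 measured targets 15 had a positive difference (50.7% of all genes), 3 had a higher enrichment at an unadjusted p under 0.05 (4.65% of all genes), and the median was 0.025. Leaving out 1 animal moved this median between -0.0321 (without EYFP IP_505) and 0.0588 (without EYFP IP_512), and it was also below 0 without hTyr IP_509 (-0.0114). Srxn1 (0.25), which repairs peroxiredoxins, and Sqstm1 (0.22), an autophagy receptor, were the other 2. The glutathione synthesis genes Gclc (0.19) and Gclm (0.059), the quinone reductase Nqo1 (0.081) and the thioredoxin reductase Txnrd1 (0.11) differed by less (Gclm and Nqo1 turned sign under some alternatives), and the ferritin chains Fth1 (-0.30) and Ftl1 (-0.21) were on the other side of 0 with adjusted p of 0.711 each. The member with the next highest difference after Hmox1 was Pir (0.29, SE 0.22, adjusted p = 0.795), a nuclear iron-binding protein.

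Among 19 measured p53 targets 14 had a positive difference (50.7% of all genes), 5 had a higher enrichment at an unadjusted p under 0.05 (4.65% of all genes) and 0 passed, with a median of 0.14, or 0.0908 without hTyr IP_501. After Cdkn1a these were Rrm2b (0.35), a subunit that supplies nucleotides for repair, Mdm2 (0.32), the ligase that degrades p53, Sesn2 (0.46) and Ccng1 (0.29), a cyclin. The proapoptotic targets Bax (-0.19), Bbc3 (0.14) and Pmaip1 (-0.011) were not among them, and the signs of the last 2 turned under some alternatives. Of 23 genes of axon injury and regeneration 16 had a positive difference and 4 had a higher enrichment at an unadjusted p under 0.05, against the same 50.7% and 4.65% of all genes, with a median of 0.11, or 0.0689 without EYFP IP_511. They were Tnfrsf12a, Klf6, Atf3 and Adcyap1 (0.47, SE 0.13, adjusted p = 0.48), the neuropeptide PACAP. The growth genes Gap43 (-0.055), Stmn2 (0.071) and Jun (0.11) did not reach an unadjusted p under 0.05, and the signs of Gap43 and Stmn2 turned under some alternatives.

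Cytosolic heat shock proteins, which fold proteins outside the ER, numbered 18. Of these 14 had a positive difference (50.7% of all genes) and 4 had a higher enrichment at an unadjusted p under 0.05 (4.65% of all genes), with a median of 0.12. On leaving out 1 animal the median ran from 0.078 (without hTyr IP_509) to 0.18 (without hTyr IP_510), with 1 to 5 genes at that p. In this list the input carried the larger part, with a median difference of -0.13 in input and 0.031 in IP. Hspa4l (0.435, SE 0.13, adjusted p = 0.646) and Hsp90aa1 (0.34) had the lowest p. Of 21 immediate early genes, which report recent activity, 4 had a higher and 1 a lower enrichment at an unadjusted p under 0.05 (4.65% and 2.29% of all genes). Maff, a small MAF factor, differed by 0.98 (SE 0.30, adjusted p = 0.659), and Npas4, an activity-dependent factor, by -0.94 (SE 0.32, adjusted p = 0.699).

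**Figure D3:**
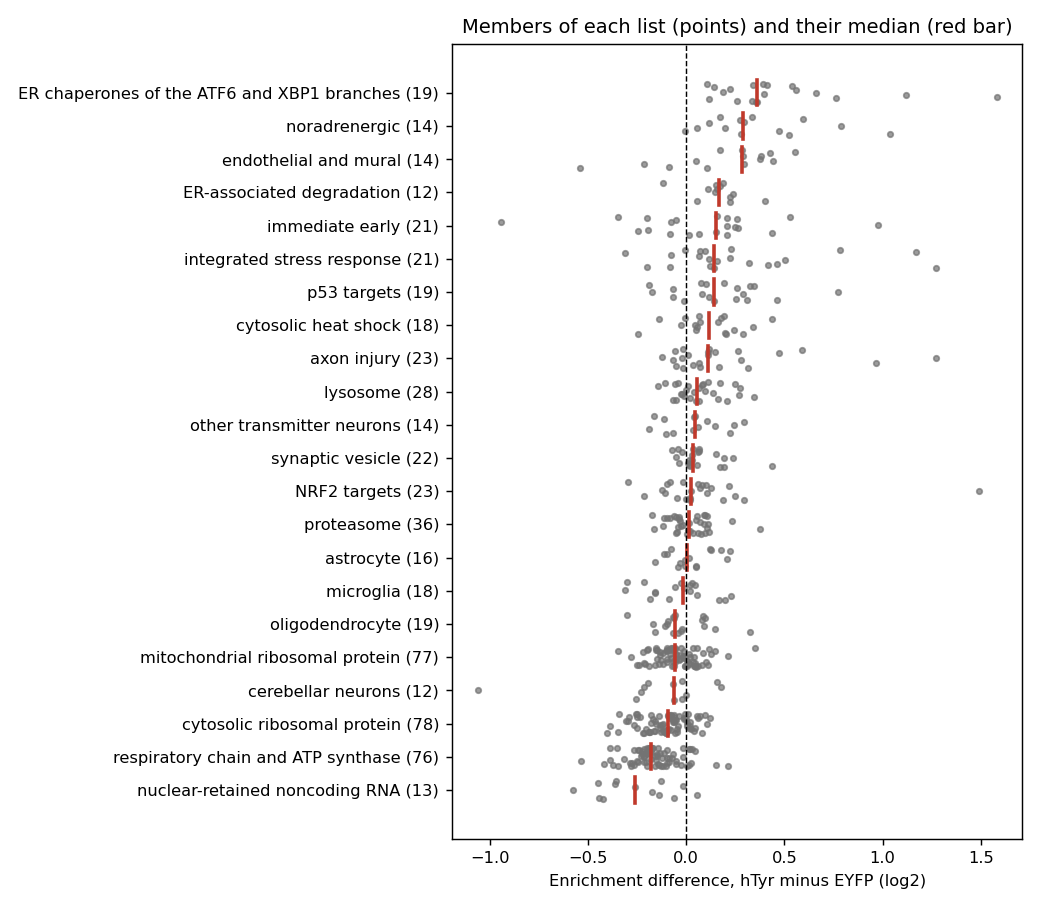
Enrichment difference (hTyr minus EYFP, log2) of every measured member of 22 gene lists (points; number of members in brackets) with the median of each list as a red bar, ordered by median. The ER chaperones stand highest, with a median of 0.36 and no member below 0, and the nuclear-retained noncoding RNAs lowest, with a median of -0.26.

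Noradrenergic genes were enriched in both treatments, and none of them passed the test of the difference. Of the 14 genes 13 had a positive difference (50.7% of all genes), 4 had a higher enrichment at an unadjusted p under 0.05 (4.65% of all genes), with Th, Slc18a2 and Gch1 among them, and the median was 0.29. Without hTyr IP_501 the median was 0.121 with 2 genes at that p, and without hTyr IP_502 it was 0.191 with 4. The highest median on leaving out 1 animal was 0.414, without hTyr IP_508. Th, tyrosine hydroxylase, had an enrichment of 3.58, 3.10, 2.23, 2.68 and 2.29 in the hTyr animals and of 1.45, 1.94 and 2.66 as the lowest, median and highest EYFP values. The ranges overlapped, and the difference was 0.79 (SE 0.21, adjusted p = 0.452). Slc18a2, the vesicular monoamine transporter, differed by 0.59 (SE 0.24, adjusted p = 0.71), and Gch1, which makes the cofactor of tyrosine hydroxylase, by 0.47 (SE 0.20, adjusted p = 0.71). Dbh, dopamine beta-hydroxylase and the gene with the highest enrichment in EYFP among them, differed by 0.28 (SE 0.25, adjusted p = 0.836), Phox2a by 0.33, Ddc, the decarboxylase, by 0.20 and Gal, the neuropeptide galanin, by 0.12. The signs of Dbh, Phox2a and Gal turned with either covariate, the noradrenergic enrichment (which contains these genes) or the read ratio, and those of Slc6a2 and Ddc with the former.

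Slc6a2, the noradrenaline transporter whose sequences drive the ribosome tag, shows how an enrichment can differ through the input. Its enrichment was 5.54, 4.82, 3.82, 3.83 and 4.35 in the hTyr animals and 3.39, 3.81 and 4.82 as the lowest, median and highest EYFP values, a difference of 0.53 (SE 0.27, adjusted p = 0.711). The groups overlapped. In IP it was lower in hTyr by 0.39 and in input by 0.91, where it had 67 to 106 reads in hTyr and 132 to 193 in EYFP. The 14 noradrenergic genes, with Slc6a2 among them, had a median difference of 0.234 in IP and of -0.0331 in input. The lower input level of Slc6a2 was thus not typical of the list, and its cause was not tested. In such bulk samples fewer cells of a type and less RNA per cell cannot be told apart.

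Each enrichment difference has an IP part and an input part, and both were looked at in the genes with an unadjusted p under 0.05. Of the 586 genes with a higher enrichment at an unadjusted p under 0.05 the IP difference was the larger part in 388. Their median difference was 0.203 in IP and -0.129 in input, and a lower input raises the enrichment. Of the 288 genes with a lower enrichment the IP difference was the larger part in 264. Their medians were -0.274 in IP and 0.0595 in input. These genes were chosen by this same difference, so parts that lie in its direction are largely given by the choice. The share of all genes with the larger part in IP was not examined, so the counts have nothing to be set against. For the 5 genes past the threshold the IP differences were 1.44 for Sdf2l1, 1.14 for Ddit3, 0.86 for Creld2, 1.73 for Hmox1 and 1.03 for Tnfrsf12a. Their input differences were -0.13, -0.03, -0.26, 0.24 and 0.058 in the same order. Creld2 thus took the largest share from input, and Hmox1 was higher in both fractions.

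**Figure D4:**
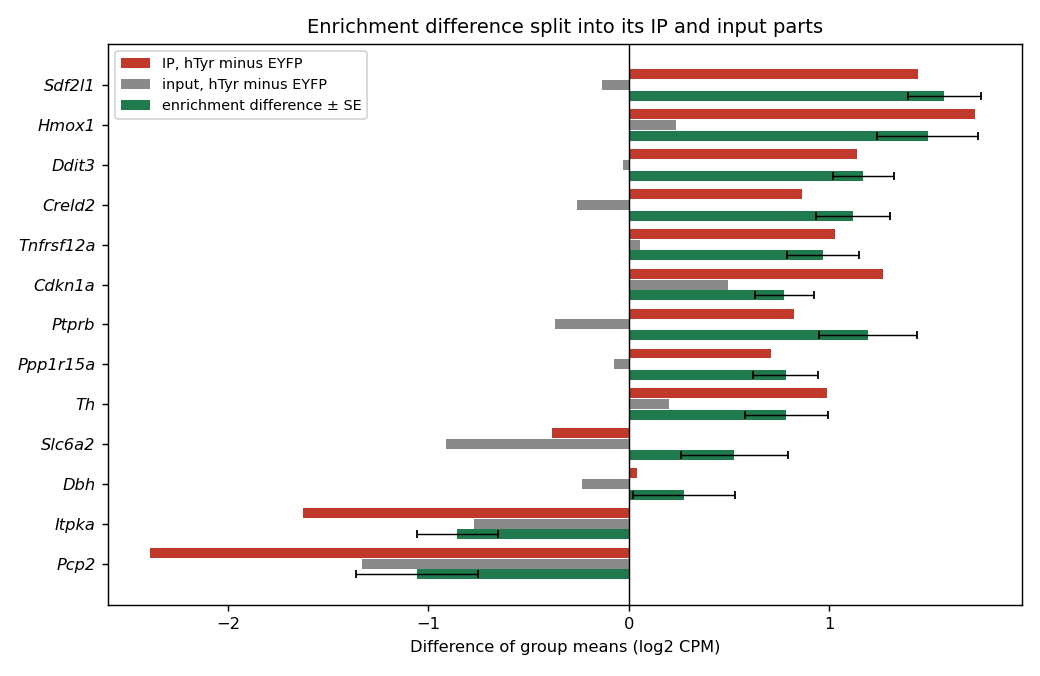
Difference of group means (hTyr minus EYFP, log2 CPM) in IP (red) and in input (grey), and the enrichment difference that results from them (green, with its SE from limma), for 13 genes. In Sdf2l1, Ddit3 and Tnfrsf12a the red and green bars are nearly equal, while Slc6a2 has a positive green bar from 2 negative parts (-0.39 in IP and -0.91 in input).

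No gene passed with a lower enrichment in hTyr (288 at an unadjusted p under 0.05, lowest adjusted p 0.278, that of Itpka). The enrichment of Itpka was -0.61, -0.36, -0.70, 0.33 and -0.53 in the hTyr animals and 0.13, 0.47 and 0.88 as the lowest, median and highest EYFP values. Animal IP_509 was the 1 hTyr animal above 0, and without it the difference was -1.03 (adjusted p = 0.0472). Itpka levels also varied between animals of 1 treatment, with 39 to 528 reads in hTyr IP and 96 to 771 in EYFP IP. Pcp2, a marker of cerebellar Purkinje cells, differed by -1.06 (SE 0.31, adjusted p = 0.537) with as few as 9 to 34 reads in hTyr IP. The mean level of 12 cerebellar genes ran from 4.21 to 4.83 log2 CPM in hTyr IP and from 4.67 to 6.37 in EYFP IP, and from 4.52 to 4.94 in hTyr input and 4.57 to 6.26 in EYFP input. The part of this varying cerebellar RNA in the differences of Itpka and Pcp2 was not tested.

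The RNA polymerase II subunits Polr2j and Polr2l were next among the genes with a lower enrichment. Polr2j stood at -0.34, -0.55, -0.32, -0.25 and -0.35 in the hTyr animals and at -0.16, 0.012 and 0.32 as the lowest, median and highest EYFP values. The groups did not overlap, and the difference was -0.41 (SE 0.11, adjusted p = 0.452). Polr2l differed by -0.58 (SE 0.16, adjusted p = 0.522) with overlapping groups. Other genes of low p on this side were Idnk, a gluconate kinase (-0.37), Nrtn, the growth factor neurturin (-0.46), Kif17, a kinesin of dendrites (-0.51), Fmnl3, an actin regulator (-0.54), and Pmf1, a kinetochore protein (-0.63), at adjusted p of 0.534 to 0.646. Short transcripts of the respiratory chain lay on the same side. Of 76 subunits of the respiratory chain and ATP synthase 67 had a negative difference (6215 of all 12596 genes did). Of these 6 had an unadjusted p under 0.05 (2.29% of all genes had a lower enrichment at that p). The median was -0.18. Without hTyr IP_510 the median was -0.0848 with 0 genes at that p, and without hTyr IP_509 it was -0.245 with 34. In these genes EYFP animals had a median enrichment of 0.072 and hTyr animals one of -0.14. Of 78 cytosolic ribosomal proteins, whose many pseudogene copies make their counts uncertain, 62 had a negative difference (6215 of all 12596 genes). The median was -0.092, and 3 had a lower enrichment at an unadjusted p under 0.05 (2.29% of all genes). In the ribosomal list leaving out 1 animal moved the positive members from 16 to between 10 and 46, the last without hTyr IP_510, where the median was 0.0224.

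Noncoding RNAs that stay in the nucleus are not translated. The list given that name holds 13 measured noncoding RNAs. Their place in the cell was not measured here, and not all need be confined to the nucleus, such as Gas5 and Snhg1. Of the 13, 8 were depleted from the IP in EYFP animals (31.2% of all genes) and 10 in hTyr animals (33%). Of the 13, 12 had a negative difference (6215 of all 12596 genes did), and the median was -0.26. Miat (-0.45) was the 1 with a lower enrichment at an unadjusted p under 0.05 (2.29% of all genes). Malat1 had enrichments of -1.55, -1.75, -1.60, -2.78 and -1.65 in the hTyr animals and of -2.48, -1.26 and 0.11 as the lowest, median and highest EYFP values. The groups overlapped widely, and the difference was -0.57 (SE 0.30, adjusted p = 0.716). The mean of the list ran from -1.30 to -0.63 in hTyr and from -1.14 to -0.15 in EYFP.

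Markers of the other cells in the tissue were examined in the same way. Of 19 oligodendrocyte genes 6 had a positive difference (median -0.054), of 16 astrocyte genes 8 (0.0052) and of 18 microglial genes 8 (-0.017). Among the oligodendrocyte genes 1 had an unadjusted p under 0.05 in each direction, and 0 did in the other 2 lists. Of all genes 4.65% had a higher and 2.29% a lower enrichment at that p. Counts this low in lists of this size therefore do not show an absence of change. Of 14 genes of other transmitter systems 9 had a positive difference (median 0.045). Of 14 endothelial and mural genes 2 had a higher and 1 a lower enrichment at an unadjusted p under 0.05. Of the 14, 11 had a positive difference (50.7% of all genes), with a median of 0.29. Leaving out 1 animal moved this median to 0.15 (without EYFP IP_504), 0.164 (without hTyr IP_510), 0.191 (without hTyr IP_501) or 0.433 (without hTyr IP_502), and the 4 members among the upper 75% of genes by mean level had a median of -0.017. Rgs5, a pericyte gene, differed by 0.44 (SE 0.14, adjusted p = 0.646), Slco1a4, a transporter of the blood-brain barrier, by 0.55, and Esam, an endothelial adhesion molecule, by -0.54. The mean enrichment of these vascular genes was 0.75, -0.11, 0.48, 0.40 and 0.80 in the hTyr animals and 0.12 to 0.60 in EYFP, so that animal IP_502, one of the 2 with the highest ER chaperone enrichment, had the lowest vascular value. Their part in the difference of Ptprb was not tested.

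**Figure D5:**
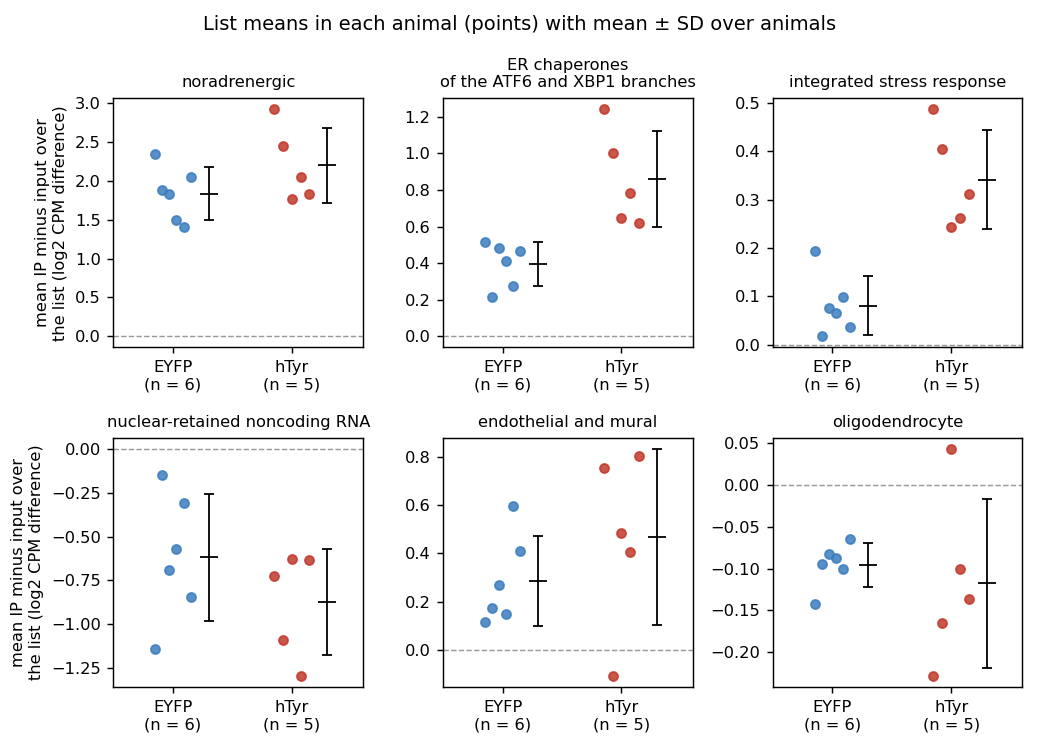
Mean enrichment (IP minus input, log2 CPM difference) of 6 gene lists in each animal, with mean ± SD beside the points. The treatments did not overlap in the ER chaperones (0.62 to 1.24 in hTyr against 0.22 to 0.51 in EYFP). Nor did they in the integrated stress response (0.24 to 0.49 against 0.017 to 0.19), while the other 4 lists overlap. The former mean contains Sdf2l1 and Creld2 and the latter Ddit3, which are genes past the threshold. Means without these genes were not examined, so neither gap can be read as that of the other members.

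Differences in enrichment also followed the base composition of transcripts. Across 12376 genes, which are not independent and share the same libraries, Spearman's rho of the difference was -0.49 with GC content and 0.20 with transcript length. The 2476 genes with the lowest GC content (median 41.6%) had a median difference of 0.14 and the 2475 with the highest (median 58.1%) one of -0.088. The median enrichment of the former was 0.30 to 0.68 in the hTyr animals and 0.17 to 0.36 in the EYFP animals. After each library's trend on length and GC content was removed, with the animal kept as the block, rho was -0.03 and -0.05. The 5 genes then all passed, together with Cstb, a protease inhibitor. The median difference of the respiratory chain list moved from -0.177 to -0.0995 and that of the cytosolic ribosomal proteins from -0.0919 to -0.0361. For the ER chaperones it moved from 0.362 to 0.369 and for the nuclear-retained noncoding RNAs from -0.259 to -0.378. The ER chaperones had a median GC content of 48.9% and all genes one of 50%.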

How the data were processed

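IP and input RNA of 11 mice were sequenced. Per the file headers and values, the authors deposited 1 table of log2 CPM per gene and library (12596 genes, 22 libraries). The submitters' processing notes name STAR, featureCounts and mm10; the filter on genes, the scaling method and the use of strand are not given in the sources used here. Whole reads could be recovered from 100% of values (within 0.05 reads) given a constant averaging 2 reads, and they give the read totals and ranges. Reads carry no molecular identifiers, so their numbers are not numbers of molecules. Samples were grouped by their labels, and 0 sample columns were left unused. The mean level of 4 Y-linked genes was 3.85 to 4.27 log2 CPM in hTyr IP_501 and IP_509 and in EYFP IP_505, IP_507 and IP_511. In the other animals it was -3.21 to -3.00, at or near the value of 0 reads (-3.21). Each treatment thus held animals with and without clear Y-linked RNA.

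Input was subtracted from IP within each animal, and the differences were compared between treatments with limma 3.58.1 (R 4.3.3; moderated test, prior variance trended on mean level, two-sided), with Benjamini-Hochberg adjustment over all genes and a threshold of 0.05. Pairing comes from the animal number in the titles. Across genes, an animal's IP and input deviations from their group means went together (r of 0.448 on average, 0.279 to 0.626). By this r 11 of 11 animals matched their own number best. Between different animals of a treatment r averaged -0.096. That value is no separate evidence, since such deviations sum to 0 within a group and pull it below 0. The labels do not give batches or dates, and p-values measure the spread between these animals. The script was tested on simulated data. Transcript length and GC content (GENCODE M21) were found for 12376 genes (98.253%), and promoters come from RefSeq GRCm38.p6. Figures were drawn with matplotlib 3.10.9 in Python 3.11.15.

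The genes named are those past the threshold, the next by p in each direction, noradrenergic genes and the members of each list with the lowest p; others were chosen after their values were seen, and some genes that the rule names are not reported here. The comparison and the lists were chosen with earlier results of these data known. Alternatives were other scalings, priors and constants, covariates, no pairing, and leaving out each animal.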

Additional observations from a re-analysis of the deposited data

Results flagged for a closer look

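The 5 genes whose enrichment differed between the treatments by the test of the difference itself were Sdf2l1 (1.58), Ddit3 (1.17), Creld2 (1.12), Hmox1 (1.49) and Tnfrsf12a (0.969).

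In 20 cases over 234 groups of animals, 1 animal stood apart from the others of its treatment by Dixon's criterion, where about 11.7 would by chance (1 in 20). Animal IP_501 was the highest hTyr animal for Abce1 (1.81, next 1.5), Edem3 (1.38, next 0.76), Hspa4l (2.31, next 1.78), Syt1, a synaptic vesicle calcium sensor (1.14, next 0.693), Txnrd1 (0.429, next 0.26), Canx (1.44, next 0.972), Dnajc3 (1.58, next 1.07) and Hspa13, an ER-associated HSP70 (1.58, next 1.18). Animal IP_510 was the lowest for Chac1 (0.154, next 0.597) and the ribosomal protein gene Rps13 (-1.04, next -0.321). Animal IP_508 was the highest for Ftl1 (-0.328, next -0.566), animal IP_502 the lowest for the microglial gene Tyrobp (-1.03, next -0.34), and animal IP_509 the lowest for Malat1 (-2.78, next -1.75) and the DNA repair gene Ogg1 (-1.1, next -0.499).

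Among EYFP animals, IP_507 was the lowest for Mdm2 (-0.527, next -0.266) and the highest for Ogg1 (0.201, next -0.027) and Pir (1.54). Animal IP_505 was the lowest for the lysosomal membrane gene Lamp2 (0.0513, next 0.379) and for Pdia4 (0.141, next 0.454), and animal IP_504 the lowest for the ATP synthase subunit Atp5l (-0.359, next -0.0673).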

How the results depend on the processing

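The number of genes past the threshold, 5 as reported, was 1 with a constant prior variance, 1 with no replicate block (without the pairing of IP and input by animal; 417 at an unadjusted p under 0.05), 2 with the noradrenergic enrichment as a covariate, 0 with the read ratio as a covariate and 3 among the upper 75% of genes by mean level. Leaving out 1 animal gave 2 to 8, with 2 without EYFP IP_506 or hTyr IP_502, 3 without EYFP IP_512 or hTyr IP_501 and 8 without hTyr IP_509. Median centring, quantile normalization, another constant, voom, the Y-linked covariate and the removal of length and GC trends gave 4 to 6. Signs reversed with the noradrenergic covariate for Dbh (-0.234), Slc6a2 (-0.00494), Ddc (-0.00248), Phox2a (-0.254), Gal (-0.273), Atf6 (-0.0122), Gclm (-0.022) and Phgdh (0.0104). They reversed with the read ratio for Dbh (-0.0944), Phox2a (-0.00268), Gal (-0.278), Bbc3 (-0.077), Nqo1 (-0.0131) and Phgdh (0.0339), with length and GC trends removed for Gclm (-0.0628), Slc3a2 (0.0436) and Stmn2 (-0.0384), and with quantile normalization for Pmaip1 (0.417). Leaving out 1 animal gave differences on both sides of 0 for Gal (-0.0368 to 0.317), Gap43 (-0.134 to 0.0325), Nqo1 (-0.112 to 0.223), Phgdh (-0.152 to 0.0354), Pmaip1 (-0.167 to 0.117), Psat1 (-0.000143 to 0.136) and Slc3a2 (-0.0585 to 0.0412). The cause was not tested. edgeR's quasi-likelihood test on recovered reads was not run, and voom stood in for it; Hmox1 was not in the upper 75% of genes. Genes with under 100 reads in a library, such as Pcp2 and Ptprb, are limited by depth.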

Other observations

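The genes in this section were chosen after their values were seen. The RNA with the highest difference of all genes was Rn7sk, the 7SK RNA that holds back a transcription elongation factor, at 1.79 (SE 0.615, adjusted p = 0.699). Its enrichment was 3.24, 1.22, -1.15, 2.65 and 2.51 in the hTyr animals and -2.09, 0.068 and 1.62 as the lowest, median and highest EYFP values, so both groups were widely spread. Rn7s1 (1.61) and Rn7s2 (1.66), near-identical copies of the RNA of the signal recognition particle whose reads may be split between them, behaved alike, with adjusted p of 0.705 and 0.699.

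Without overlap between the groups stood Tes, a focal adhesion protein, with 2.07, 2.31, 1.53, 1.14 and 1.36 in the hTyr animals and -0.11 to 1.03 in EYFP (difference 1.18, SE 0.28, adjusted p = 0.278). Surf4, a cargo receptor for export from the ER, differed by 0.366 and Ostc, a subunit of the oligosaccharyltransferase, by 0.385 (adjusted p = 0.534 each).

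Of 28 lysosomal genes 18 had a positive difference (median 0.057), of 36 proteasome genes 20 (0.0125), of 22 synaptic vesicle genes 17 (0.033) and of 77 mitochondrial ribosomal protein genes 25 (-0.055). Among all genes 50.7% had a positive difference, and none of the members of these lists passed the adjusted threshold.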
